A study of Mus musculus with 6 samples.

Results

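The 8 genes described here belong to cholesterol synthesis and to the SREBP2 system that controls it: Srebf2, Insig1, Hmgcs1, Idi1, Fdps, Fdft1, Sqle and Lss. They were taken by gene symbol from a deposited table of 15319 genes, and all 8 were listed and tested. The table holds RNA-Seq of tumor-infiltrating Tregs from 3 WT libraries and 3 cKO libraries. WT mice were Foxp3Yfp-Cre, and cKO mice were Xrcc6flox/floxFoxp3Yfp-Cre, so that both groups carry the Cre and differ in the floxed gene for Ku70, which recombines where the Foxp3 locus is active. Mice of 8 to 10 weeks received 1000000 LLC cells, a mouse lung carcinoma line, through the tail vein, and Tregs were isolated from the lung tumors on day 21. Whether a library stands for 1 mouse or for pooled mice is not given in the sources used here, so p-values measure the spread between these libraries. The question asked of these genes is whether their mRNA levels differed between Ku70-deficient and WT Tregs, with and without WT replicate 2, a library that stood apart from the others.

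Cells make cholesterol from acetyl-CoA through mevalonate, isoprenoids and squalene. SREBP2, the protein of Srebf2, is held in the endoplasmic reticulum by INSIG proteins when sterols are plentiful. When sterols run low, it is carried to the Golgi apparatus, cut, and enters the nucleus, where it activates the genes of the pathway. INSIG1 is itself a product of an SREBP target gene and closes a feedback loop. In T cells the pathway is known for being switched on with activation and growth, and its isoprenoid branch supplies the lipids that anchor small GTPases to membranes.

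SREBP2 acts through sterol regulatory elements, usually beside sites for NF-Y. RefSeq windows of GRCm38.p6, each 300 bases long from 250 bases before to 50 bases after a transcription start, were given for 5 of the 8 genes. Those of Hmgcs1 (chr13:119690101-119690400), Insig1 (chr5:28071162-28071461), Srebf2 (chr15:82147019-82147318) and Idi1 (chr13:8885356-8885655), all on the plus strand, are shown because they stand for an early enzyme of the pathway, its feedback brake, its activator, and the gene that varied most between libraries once WT replicate 2 was left out. Capitals mark the sterol element TCACCCCAC or its looser form CACNCCAC, which overlaps it, and the NF-Y box CCAAT, each on either strand.
Hmgcs1: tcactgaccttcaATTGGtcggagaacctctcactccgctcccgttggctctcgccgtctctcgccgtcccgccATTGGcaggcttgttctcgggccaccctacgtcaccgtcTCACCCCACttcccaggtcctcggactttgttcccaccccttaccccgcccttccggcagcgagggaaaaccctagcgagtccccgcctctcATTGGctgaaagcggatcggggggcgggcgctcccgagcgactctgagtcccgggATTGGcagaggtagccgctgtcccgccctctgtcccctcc
Insig1: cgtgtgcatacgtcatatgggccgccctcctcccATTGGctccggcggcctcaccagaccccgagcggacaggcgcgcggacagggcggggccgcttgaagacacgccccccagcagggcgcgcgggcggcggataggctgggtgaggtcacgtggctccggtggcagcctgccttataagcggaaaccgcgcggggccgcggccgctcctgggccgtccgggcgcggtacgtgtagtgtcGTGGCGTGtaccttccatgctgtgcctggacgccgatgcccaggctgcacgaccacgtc
Srebf2: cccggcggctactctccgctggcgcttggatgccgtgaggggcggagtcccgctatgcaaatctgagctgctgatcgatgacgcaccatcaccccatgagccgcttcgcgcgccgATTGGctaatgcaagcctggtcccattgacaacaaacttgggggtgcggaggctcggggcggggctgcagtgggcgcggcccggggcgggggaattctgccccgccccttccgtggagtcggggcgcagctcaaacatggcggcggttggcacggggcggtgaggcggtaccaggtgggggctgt
Idi1: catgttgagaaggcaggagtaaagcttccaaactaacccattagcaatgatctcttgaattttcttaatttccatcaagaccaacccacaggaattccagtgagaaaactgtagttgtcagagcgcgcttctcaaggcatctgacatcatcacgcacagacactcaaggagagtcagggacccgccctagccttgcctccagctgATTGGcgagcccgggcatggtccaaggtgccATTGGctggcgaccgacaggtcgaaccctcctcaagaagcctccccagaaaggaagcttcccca

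The Hmgcs1 window held the sterol element, with the looser form starting 136 bases before the transcription start, and it held 4 NF-Y boxes. Of all 32851 windows, 0.551% held that element. The looser form occurred in the windows of Hmgcs1 and Insig1, where it started 9 bases before the start, and in 6.24% of all windows. Those of Srebf2 and Idi1 held neither form, with 1 and 2 NF-Y boxes. An NF-Y box was found in all 5 windows, including that of Lss, against 37.4% of all windows, and the GC box GGGCGG in all 5 against 35.7%. These are matches of letters in these windows only.

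The WT libraries held 19032620 to 21707706 counts and the cKO libraries 20762042 to 23159815. Levels are given as CPM, the count of a gene per 1000000 counts of its library, with library totals scaled by edgeR's TMM method, and 3 values of a group stand in the order of replicates 1, 2 and 3. WT replicate 2 listed 11513 genes with at least 1 count, against 14442 to 14737 in the other 5 libraries. Xrcc6, the targeted gene, measured 20.9, 63.1 and 23.8 CPM in WT and 5.24, 3.51 and 4.18 CPM in cKO Tregs. The Treg markers were present in every library, with Foxp3 at 150 to 241 CPM in WT and 189 to 282 CPM in cKO Tregs. Macrophage markers were also present: the 9 listed summed to 186 to 729 CPM in WT and 236 to 1097 CPM in cKO libraries, while 8 markers of lung epithelium summed to at most 105 CPM in any library. Of the macrophage sums, Lyz2 alone held 129 to 500 CPM in WT and 170 to 625 CPM in cKO libraries. Sums for neutrophil markers (8 genes) lay at 10.1 to 20.5 CPM, for CD8 T and NK cell markers (5 genes found) at 5.26 to 21.9 CPM and for B cell markers (5 genes found) at 12.0 to 48.3 CPM over all libraries. At an unadjusted p under 0.05 from edgeR, 3 of 8 neutrophil markers (S100a9, Retnlg and Ngp, none above 1.91 CPM in any library) were higher in cKO Tregs with and without WT replicate 2. Over all genes, 1.81% passed with all libraries and 3.01% without WT replicate 2. By sign alone, 6 of the 8 neutrophil markers were higher and 2 lower in either fit. The more abundant Cxcr2 was at -0.58 and -0.56 on the log2 scale. Csf3r was at -0.085 and 0.019, and S100a8 at 0.33 and 1.39, and none of these 3 passed. Over 6 libraries 1 of 5 B cell markers (Pax5, at most 0.756 CPM) was higher and 1 of 10 proliferation markers (Cdk1, log2 fold change -0.90) lower, while 0 of the macrophage, Treg, lung epithelium, and CD8 T and NK cell markers passed in either fit. These marker genes were named after their values were seen.

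In GENCODE vM21 of GRCm38, Insig1 spans chr5:28071363-28078662, Hmgcs1 chr13:119690379-119708260, Idi1 chr13:8885501-8892451 and Lss chr10:76531588-76557138, all on the plus strand. Sqle spans chr15:59315077-59331192 on the plus strand, and Fdps chr3:89093588-89101959 and Fdft1 chr14:63145150-63179578 on the minus strand. All 8 are protein-coding genes. Summed over the 8, the libraries held 447, 560 and 404 CPM in WT and 469, 419 and 402 CPM in cKO Tregs, groups that overlapped. On a scale of CPM per kilobase of annotated exon, and with WT replicate 2 left out, Insig1 (25.4 ± 2.49, SD, n = 5) and Srebf2 (24.8 ± 1.59, SD, n = 5) were the highest, and their ranges over libraries overlapped. Next came Hmgcs1 at 10.2 ± 1.91, Fdft1 at 8.88 ± 0.985 and Fdps at 8.82 ± 1.29 (SD, n = 5), whose ranges overlapped from each to the next. Idi1 (5.62 ± 1.62) and Sqle (3.5 ± 0.637) followed and overlapped with each other, and Lss was the lowest at 0.985 ± 0.0664 (SD, n = 5 for each). The ranges did not overlap between Srebf2 and Hmgcs1, between Fdps and Idi1, or between Sqle and Lss. These levels per length depend on an exon length joined over all annotated transcripts, which is 10787 bases for Lss and 3093 bases for Insig1.

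No difference between cKO and WT Tregs was detected for any of the 8 genes. With edgeR's quasi-likelihood test over all 6 libraries, 0 of the 8 had an adjusted p under 0.05 and 0 had an unadjusted p under 0.05, where 0% and 1.81% of the 15315 genes tested did. Without WT replicate 2 the counts were again 0 and 0, beside 0.00654% and 3.01% of 15302 genes, and DESeq2 likewise gave 0 genes of the 8 at an unadjusted p under 0.05 in both settings. Xrcc6, the targeted gene, had a log2 fold change of -3.06 over 6 libraries, with an adjusted p of 0.984 from edgeR. Without WT replicate 2 these were -2.38 and 0.0196, so the adjusted test over 6 libraries did not call the targeted gene either. For none of the 8 were the groups free of overlap, while the CPM of 8.24% of all genes did not overlap between groups over 6 libraries and of 16.0% without WT replicate 2. In bulk samples, fewer cells of a type and less RNA per cell cannot be told apart. Intervals of 95% were taken from the SE (the standard error of a log2 fold change) and degrees of freedom of the quasi-likelihood fit, and they bound the differences that these libraries allow.

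**Figure D1:**
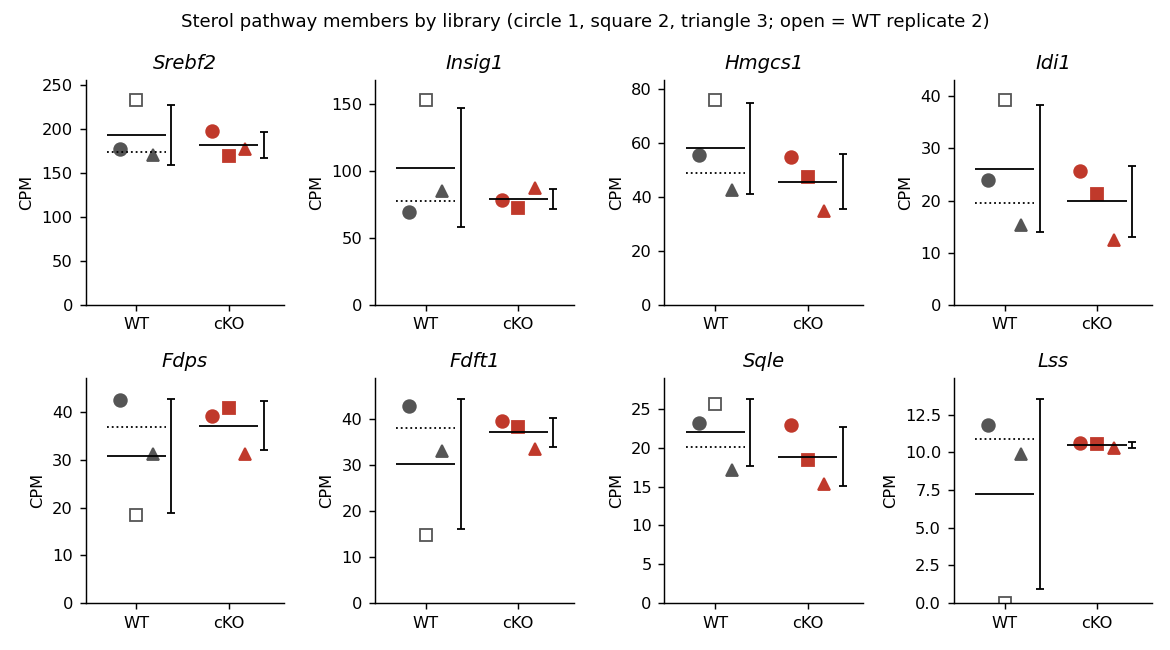
CPM of each member gene in each library (WT grey, cKO red; circles, squares and triangles are replicates 1, 2 and 3, and the open square is WT replicate 2). Solid lines are group means over 3 libraries with the SD at their side, and dotted lines are WT means without WT replicate 2; the open square lies above all other points for 5 genes and below them for 3.

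Among the regulators, Srebf2, which encodes the SREBP2 precursor, measured 177, 232 and 170 CPM in WT and 197, 169 and 177 CPM in cKO Tregs. The groups overlapped, with WT replicate 2 the highest. Means were 193 ± 34.4 CPM in WT and 181 ± 14.5 CPM in cKO Tregs (SD, n = 3). From edgeR, cKO differed from WT by -0.090 on the log2 scale (SE 0.17), with an unadjusted p of 0.610. Without WT replicate 2 this log2 fold change was 0.064, with a 95% interval of the fold from 0.843 to 1.3.
Insig1, the brake that retains SREBP2, measured 69.5, 153 and 85.3 CPM in WT and 78.3, 72.6 and 87.2 CPM in cKO Tregs. WT replicate 2 held 1.95 times the mean of the other 5 libraries, which all lay within 1.25-fold of each other. The log2 fold change was -0.37 (SE 0.29, unadjusted p = 0.235 from edgeR), and 0.035 without that library, with a fold interval of 0.813 to 1.29.

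In the mevalonate and isoprenoid steps, Hmgcs1, the synthase that makes HMG-CoA, measured 55.7, 76.0 and 42.5 CPM in WT and 54.7, 47.6 and 34.6 CPM in cKO Tregs. Values of both genotypes were interleaved, with cKO replicate 3 the lowest. Its log2 fold change was -0.35 (SE 0.26) with all libraries and -0.11 (SE 0.20) without WT replicate 2, where the fold interval was 0.674 to 1.28.
Idi1, the isomerase that makes the reactive isoprenoid unit, measured 23.9, 39.3 and 15.3 CPM in WT and 25.8, 21.3 and 12.4 CPM in cKO Tregs. With WT replicate 2 left out, its range was the widest of the 8, at 2.08-fold. Its log2 fold change was -0.40 (SE 0.41), and 0.013 (SE 0.30) without WT replicate 2. The fold interval of 0.631 to 1.61 was the widest of the 8 in that fit. The deposited Idi1 values were fractional in all 6 libraries and those of Fdft1 in 5, while those of the other members were whole.
Fdps, farnesyl diphosphate synthase, measured 42.7, 18.6 and 31.3 CPM in WT and 39.3, 40.9 and 31.3 CPM in cKO Tregs. Here WT replicate 2 was the lowest library, at 0.50 of the mean of the others. The log2 fold change was 0.27 (SE 0.30) with it and 0.0051 (SE 0.18) without it. Fdps overlaps a second protein-coding gene model, Gm43738, on the same strand, so its counts are uncertain where reads fit both.

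Among the enzymes from squalene to sterol, Fdft1, squalene synthase, measured 42.9, 14.9 and 33.1 CPM in WT and 39.7, 38.2 and 33.6 CPM in cKO Tregs. All libraries but WT replicate 2 lay within 1.3-fold of each other. Its log2 fold change was 0.30 (SE 0.36), and -0.033 (SE 0.16) without that library. The 3′ end of Fdft1 overlaps Ctsb on the other strand, and whether counting used strand is not given in the sources used here.
Sqle, squalene epoxidase, a rate-limiting step of the pathway, measured 23.2, 25.7 and 17.1 CPM in WT and 23, 18.4 and 15.3 CPM in cKO Tregs. Its groups overlapped, with a log2 fold change of -0.22 (SE 0.26), and of -0.099 (SE 0.20) without WT replicate 2.
Lss, lanosterol synthase, which closes the first sterol ring system, was covered by 247, 0 and 190 counts in WT and by 229, 219 and 231 counts in cKO Tregs. The 0 in WT replicate 2 allows a level of up to 0.141 CPM, a limit of 3 counts that covers counting error only, while the other 5 libraries held 9.90 to 11.8 CPM. The fold interval over 6 libraries therefore ran from 0.183 to 11.4, and without that library from 0.728 to 1.28 (log2 fold change -0.053, SE 0.18). Lss overlaps an antisense transcript, 4930483K19Rik.

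**Figure D2:**
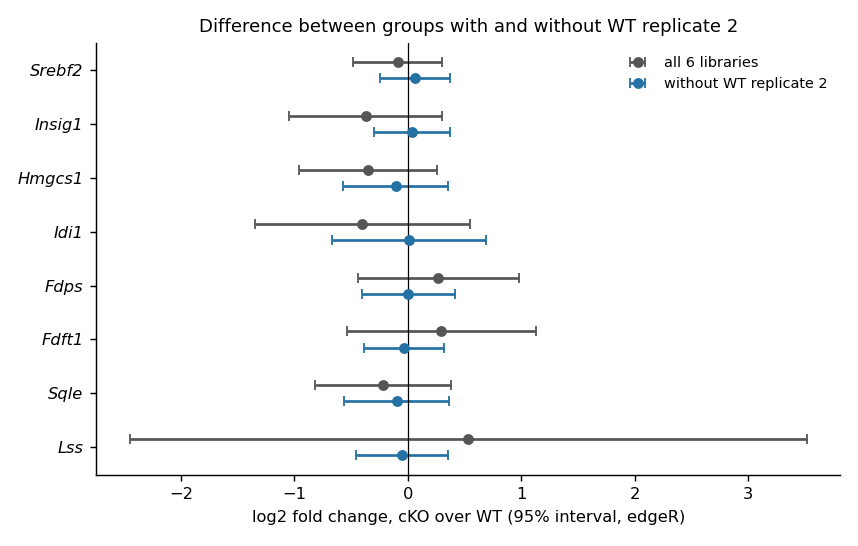
Log2 fold change of cKO over WT for each member gene with its 95% interval from edgeR, over all 6 libraries (grey) and without WT replicate 2 (blue). Every interval spans 0, and each is narrower without WT replicate 2, most of all for Lss.

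The sign of the difference turned without WT replicate 2 for 5 of the 8 genes, Srebf2, Insig1, Idi1, Fdft1 and Lss. That library was the highest of all 6 for Srebf2, Insig1, Hmgcs1, Idi1 and Sqle and the lowest for Fdps, Fdft1 and Lss, so that no member was within the range of the other libraries there. Over the 8436 genes with a mean of at least 10 CPM in the other 5 libraries, it was the highest for 36.3% and the lowest for 40.8%. The 5 genes that were highest in it were the 5 with a negative log2 fold change over 6 libraries, and the 3 that were lowest were the 3 with a positive one. That library is 1 of the 3 WT values, so this match follows largely from its own place and is no separate result. Without it, the log2 fold changes of the 8 genes lay between -0.11 and 0.064, with a median of -0.014 (-0.0089 over all genes). With it the median was -0.15, beside 0.044 over all genes. The exact two-sided permutation test of CPM over the 6 libraries gave a p from 0.4 to 0.8 per gene, and 0.8 for each after adjustment over the 8 tests, where 0.1 is the smallest p that 3 against 3 allow.

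For Idi1, Hmgcs1 and Sqle, and for other members too, libraries of the same genotype differed more than the genotype means did. Without WT replicate 2, Idi1 averaged 19.6 CPM in WT and 19.8 CPM in cKO Tregs, while it was 1.56 times higher in WT replicate 1 than in WT replicate 3, and 2.08 times higher in cKO replicate 1 than in cKO replicate 3. The same ratios were 1.31 and 1.58 for Hmgcs1 and 1.35 and 1.5 for Sqle. They were 1.36 and 1.26 for Fdps, 1.3 and 1.18 for Fdft1, and 0.816 and 0.897 for Insig1. Those of Lss were 1.19 and 1.03, and those of Srebf2 were 1.04 and 1.11. Without WT replicate 2, Fdps averaged 37.0 CPM in WT and 37.2 CPM in cKO Tregs. Hmgcs1, Idi1, Fdft1, Sqle and Lss all had WT replicate 1 above WT replicate 3 and cKO replicate 1 above cKO replicate 2 above cKO replicate 3. Lss did so by little, with 10.6, 10.5 and 10.3 CPM in the cKO libraries from 229, 219 and 231 counts. This pattern, which was noticed in the data and then counted, was present in 62.5% of the members (5 of 8), in 66.7% of the 12 genes from squalene to cholesterol with at least 10 CPM, which include 3 of these 5, and in 10.7% of all 8436 genes. In the other lists by role it was present in 37.5% of 8 mevalonate genes, which include the remaining 2, and 42.9% of 7 efflux genes. It was present in 25% of 8 prenyl transfer genes, 11.1% of 9 uptake genes, 10% of 10 genes of SREBP processing and 0% of 7 fatty acid genes. Cyp51, the sterol demethylase after Lss, followed it. WT replicate 1 held 57.7 CPM of it and WT replicate 3 held 48.1 CPM, while the cKO libraries held 59.5, 45.8 and 36.8 CPM. Insig1 went the other way between WT replicates 1 and 3 and between cKO replicates 1 and 3.

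Other genes of sterol balance varied across the same libraries. Abca1 and Mylip are targets of the LXR receptors, which sense oxysterols and drive cholesterol export. For Abca1, WT replicate 1 held 5.02 CPM, WT replicate 3 held 15.2 CPM, and the cKO libraries held 13.2, 8.22 and 18.9 CPM. For Mylip they held 9.99 CPM, 19.96 CPM, and 18.7, 18.9 and 23.4 CPM. Abcg1, a further LXR target, held 116 CPM, 141 CPM, and 127, 123 and 154 CPM. These 3 genes were lowest in WT replicate 1 and highest in cKO replicate 3 of these 5 libraries, over a narrower range for Abcg1. Lpcat3, also an LXR target, lay between 21.1 CPM in WT replicate 3 and 26.7 CPM in cKO replicate 1. All 4 genes were chosen after their values were seen. The 9 macrophage markers, of which none was at 0 in all libraries, summed to 186 CPM in WT replicate 1, 729 CPM in WT replicate 3 and 236, 570 and 1097 CPM in the cKO libraries. Lyz2 was the largest part of that sum in each library. The 10 proliferation markers summed to 405 CPM, 332 CPM, and 353, 358 and 337 CPM. Both sums move with some of these differences, and their part in them was not tested.

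**Figure D3:**
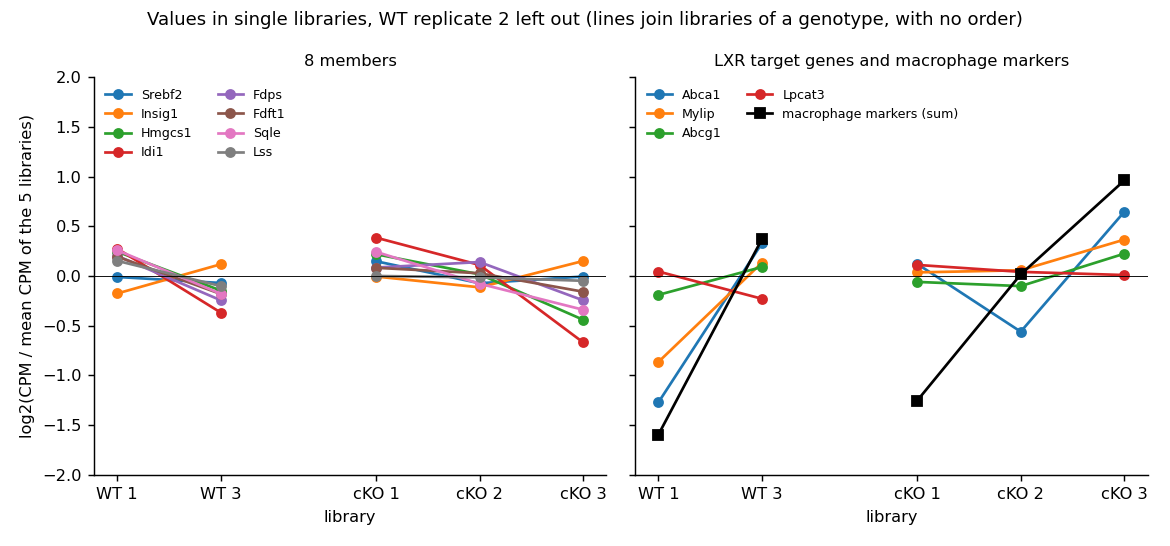
Log2 of CPM over the mean of 5 libraries, WT replicate 2 left out, for the 8 member genes (left) and for 4 LXR target genes and the summed macrophage markers (right). Lines join libraries of a genotype and imply no order. Idi1, Hmgcs1, Sqle and, by little, Fdps are lowest in cKO replicate 3, where the macrophage sum and Insig1 are highest. Srebf2 is lowest in cKO replicate 2, and Fdft1 and Lss are lowest in WT replicate 3.

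The rest of the pathway was described with 7 lists by role, holding 75 genes with the members and 67 without them. In the fit of all 6 libraries, 0 of the 67 had an unadjusted p under 0.05 from edgeR, beside 1.81% of all genes, and without WT replicate 2 it was 1 gene, higher in cKO Tregs, beside 3.01%. The CPM of 4 of the 67 did not overlap between groups with all libraries, and that of 11 without WT replicate 2, against 8.24% and 16.0% of all genes. The median log2 fold change of the 67 was 0.059 with all libraries (38 higher and 29 lower) and 0.014 without WT replicate 2 (34 higher and 33 lower).

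Ggps1, which makes the geranylgeranyl lipid anchor of small GTPases, measured 45.7, 61.5 and 53.4 CPM in WT and 55.4, 54.8 and 57.0 CPM in cKO Tregs. The groups overlapped through WT replicate 2 alone, with a log2 fold change of 0.059 (SE 0.15), or 0.17 (SE 0.13) without that library. In the list of the mevalonate steps as a whole, 5 of 10 genes were higher and 5 lower with all libraries, and 6 were higher and 4 lower without WT replicate 2.
From squalene to cholesterol the counts were 7 higher and 7 lower of 14, and 3 higher and 11 lower without WT replicate 2, with medians of -0.0025 and -0.053 on the log2 scale. Over all genes 7438 were higher and 7864 lower without WT replicate 2. The members Fdft1, Sqle and Lss, all lower in that fit, are among the 14. In either fit 0 of the 14 had an unadjusted p under 0.05 from edgeR. Cyp51 had log2 fold changes of -0.28 (SE 0.22) and -0.16 (SE 0.20). The most abundant of the others were Lbr, a sterol reductase that is also the lamin B receptor, at -0.21 and 0.17, and Ebp, a sterol isomerase, at 0.13 and -0.053.
Among genes that process or sense, Srebf1, which encodes SREBP1, measured 84.3, 58.9 and 88.1 CPM in WT and 95.5, 78.5 and 80.0 CPM in cKO Tregs. Its log2 fold change was 0.14 (SE 0.19), and -0.027 (SE 0.13) without WT replicate 2, and neither passed the test.

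Of the genes of uptake and transport, Npc2 and Stard4, which carry cholesterol out of lysosomes and between membranes, had log2 fold changes of 0.24 and -0.064, and of 0.11 and -0.042 without WT replicate 2. Nr1h2, the LXR receptor most abundant here, was at 0.037 and -0.10, and Abcg1 at -0.098 and 0.071.
Leaving out WT replicate 3 alone gave 7 of the 75 genes of the lists (9.33%) an unadjusted p under 0.05 from edgeR, beside 3.76% of all genes in that fit, and 5 of the 7 were higher and 2 lower. Among the higher ones were Abca1, with a log2 fold change of 1.85, and Mylip, with 1.26, and the lower ones were Rabggtb, at -0.52, and Pdss1, at -1.82, a gene named after its value was seen. That fit kept WT replicate 2, the lowest of the 6 libraries for Abca1, at 2.44 CPM, and for Mylip. Its WT side was WT replicates 1 and 2 only. With any 1 other library left out, 0 to 2 of the 75 genes had an unadjusted p under 0.05. With all libraries Abca1 and Mylip had log2 fold changes of 0.83 (SE 0.68) and 0.72 (SE 0.40). Without WT replicate 2 these were 0.41 (SE 0.46) and 0.44 (SE 0.27), and in neither of these fits did Abca1 or Mylip pass that threshold.

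Acss2, which makes acetyl-CoA from acetate and is an SREBP target in the fatty acid arm, was the gene with an unadjusted p under 0.05 without WT replicate 2. It measured 20.2, 35.2 and 26.4 CPM in WT and 33.2, 29.3 and 44.7 CPM in cKO Tregs, so that the groups overlapped through WT replicate 2 alone. Its log2 fold change was 0.62 (SE 0.21, unadjusted p = 0.0164, adjusted p = 0.997 from edgeR) without that library and 0.39 (SE 0.26, unadjusted p = 0.182) with it. The Acss2 locus overlaps 5 other annotated genes.
In the prenyl transfer list, Rabggtb, a subunit of the enzyme that attaches isoprenoids to Rab proteins, measured 109, 140 and 98.3 CPM in WT and 96.6, 89.2 and 74.1 CPM in cKO Tregs. All cKO libraries lay below all WT libraries, with a log2 fold change of -0.42 (SE 0.18, unadjusted p = 0.0533 from edgeR), and of -0.26 (unadjusted p = 0.111) without WT replicate 2. Its partner Rabggta had log2 fold changes of -0.20 and 0.014.

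**Figure D4:**
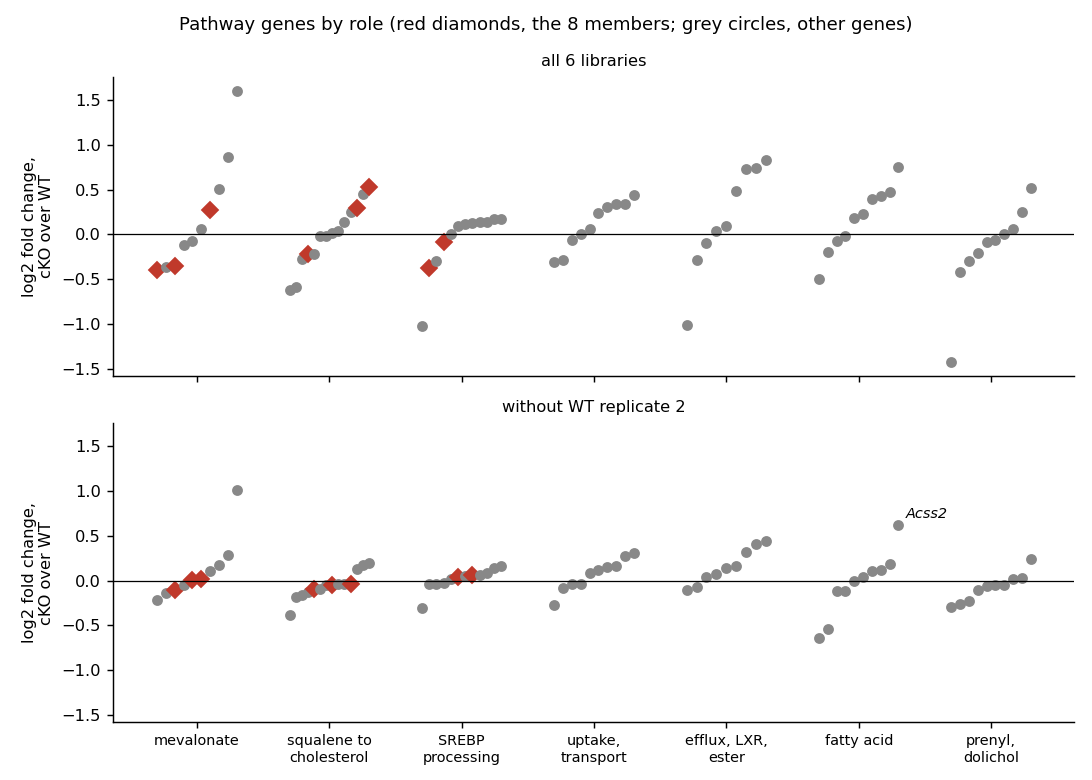
Log2 fold change of cKO over WT for the genes of 7 pathway lists, over all 6 libraries (top) and without WT replicate 2 (bottom), with the 8 members as red diamonds. The members lie between -0.40 and 0.53 in the upper panel and between -0.11 and 0.064 in the lower one, where Acss2 is the labelled gene with an unadjusted p under 0.05; the highest point of the mevalonate list is Idi2, named after its value was seen, at 2.55 CPM or less in every library.

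Srebf2 lies on the same chromosome as the targeted gene. In GENCODE vM21 of GRCm38, Xrcc6 spans 81987835 to 82040085 on chromosome 15 and Srebf2 starts 107096 bases after its end, spanning 82147181 to 82205379, with Mir33 inside it. Between them lie 2 genes with counts, Snu13 and Ccdc134, and 0 of the 2 had an unadjusted p under 0.05 from edgeR in either fit. Sqle is on chromosome 15 too, 22656643 bases before Xrcc6.

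The mean profile of the 8 genes over 6 libraries, each centred on its log2(CPM + 0.5) mean, was most like those of Tpp2, a peptidase, Sgk1, a kinase, and Ggta1, a galactosyltransferase. Their root mean square differences from it were 0.0392, 0.0556 and 0.0569 log2 units over 6 libraries. The members themselves were farther away, from 0.224 for Fdps to 1.52 for Lss, and 2139 of 8440 genes with at least 10 CPM were at least as close as Fdps. The profile stood at -0.34 in WT replicate 2, where Lss had 0 counts and entered through the pseudocount of 0.5. A mean over the other 7 genes, tried only after these values were known, stood at 0.15 there, and Tpp2, Sgk1 and Ggta1 ranked 1978, 3344 and 2548 of 8440 in likeness, so that their likeness rested on Lss.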

How the data were processed

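RNA-Seq libraries of Tregs isolated from lung tumors were used, 3 of each genotype. The values deposited by the authors are expected counts, 1 row a symbol, not normalized. The submitters' processing notes name Bowtie2 (version 2.3.4.3), RSEM (version 1.3.1) and GRCm38; the annotation and strand setting are not given in the sources used here. Of the values, 21.65% lay more than 0.000001 from a whole number (called fractional), so they were rounded. Genes with at least 1 count were kept.

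Genotypes were tested against each other by quasi-likelihood in edgeR (version 4.0.16, R version 4.3.3) with TMM scaling and Benjamini-Hochberg adjustment over all genes, with and without WT replicate 2. Standard errors and 95% intervals were derived from the F statistic. Exact permutation tests were two-sided. Members and lists were chosen with earlier results of these data known. Named genes were the members, Xrcc6, Cyp51 and, per list, genes with an unadjusted p under 0.05 in either fit or else the 2 most abundant; others are said to be chosen later. Some genes that the rule names are not reported here. Alternatives were DESeq2 (version 1.42.0), limma's voomWithQualityWeights (version 3.58.1), other scalings, filterByExpr (minimum count 10), a replicate block and leaving out libraries. Scripts were tested on simulated data. Positions and exon lengths are from GENCODE vM21, promoter windows from RefSeq.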

Additional observations from a re-analysis of the deposited data

How the results depend on the processing

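For the 8 members, 0 had an unadjusted p under 0.05 under every alternative run, with edgeR, DESeq2 and limma alike, and the lowest with 1 library left out was 0.0599, for Insig1 without WT replicate 1. Leaving out 1 library moved the log2 fold change between -0.17 and 0.064 for Srebf2, -0.59 and 0.035 for Insig1, -0.67 and 0.013 for Idi1, -0.033 and 0.63 for Fdft1 and -0.053 and 1.08 for Lss. In each case the sign turned without WT replicate 2 and in no other of these fits. With limma's voomWithQualityWeights, Srebf2 turned to 0.034. The mean member profile in WT replicate 2 turned from -0.34 to 0.15 with Lss left out. Of the members' log2 fold changes, the other 90 of 96 values kept their direction and their side of the threshold. Over all genes and 6 libraries, 2 genes passed an adjusted p of 0.05 in DESeq2 and 0 in edgeR (277 at an unadjusted p under 0.05), and leaving out 1 library gave 0 to 1. Without WT replicate 2, edgeR gave 1, DESeq2 3, and leaving out a further library 0 to 1. Genes at an unadjusted p under 0.05 over 6 libraries were 140 with filterByExpr, which tests fewer genes, 543 with limma's voomWithQualityWeights and 65 (without cKO replicate 3) to 874 (without WT replicate 1) with 1 library left out. Without WT replicate 2 they were 461, and 186 (without cKO replicate 3 too) to 1253 (without WT replicate 3 too) with a further library left out. Where WT replicate 1 or 3 is left out as well, the lone WT library is assumed to vary like the cKO libraries, from which the spread then comes. The cause was not tested. Of the pathway genes, limma's voomWithQualityWeights gave 2 of 75 (Acss2 and, named after its value was seen, Scd2), or 2.67% beside 3.55% of all genes. Leaving out 1 library gave 0 to 7: 7 (9.33%, beside 3.76% of all genes) without WT replicate 3, 2 (2.67%, beside 5.71%) without WT replicate 1, 1 (1.33%, beside 3.01%) without WT replicate 2, and 0 without any one cKO library. Libraries share replicate numbers across groups, and deviations of same-numbered libraries from their group means correlated at 0.114, -0.0941 and 0.211. Not every library correlated best with its own number. With 3 libraries per group, this check cannot decide whether equal numbers mark a pairing. The replicate block gave 85 genes at an unadjusted p under 0.05, 0 of them members. Depth limits little here: apart from Lss in WT replicate 2, each member had at least 190 counts in each library.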
